A study of Homo sapiens with 6 samples.

Results

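Kinesins are the motor proteins that move along microtubules by hydrolysing ATP, and this account covers the kinesin motor superfamily in leukaemia cells exposed to the compound 8p. The members were the rows annotated as protein coding whose symbol was KIF or KIFC followed by a number and, where present, a family letter. That rule found 42 of the 58735 genes listed, and 29 of the 42 had enough counts to be tested. They were divided by their known roles into 15 mitotic kinesins, 17 transport kinesins and 10 ciliary or other kinesins.

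The samples were cultures of MOLM-13, an established human acute myeloid leukaemia line with a KMT2A-MLLT3 fusion and wild-type genotype in the labels' wording. The 8p group held 3 cultures given 8p at 3.5 nM, described as an inhibitor of RET and of CDK8 with an IC50 of 7 nM, and the control group held 3 untreated cultures, all harvested after 48 hours as independent biological replicates. Whether the controls received solvent is not stated. Both groups share 1 cell line, so the results describe that line.

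Most kinesins step toward the plus ends of microtubules, and a few step toward the minus ends or take tubulin off microtubule ends. Dividing cells use one set to separate spindle poles, align chromosomes and complete cytokinesis, and transcripts of that set are known to peak around mitosis. Transport kinesins carry organelles, vesicles and protein complexes in resting and dividing cells alike, often through light chains or adaptor proteins that bind the cargo.

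Since many genes that peak in G2 and mitosis carry a CHR element (TTTGAA) near a CCAAT box in the promoter, sequences of RefSeq promoters (GRCh38.p14, 250 bases before and 50 after the start site) were examined for the members. RefSeq promoters matched 34 of the 42 kinesins, including 13 tested mitotic, 8 tested transport and 2 tested ciliary or other kinesins. The promoters of KIF20A, KIF23 and KIFC1 are shown as mitotic kinesins whose transcripts were among the most reduced, and that of KIF5B as the transport kinesin with the highest control level. Each is printed 5′ to 3′ on the gene's strand, and capitals mark CHR (TTTGAA) or CCAAT matches on either strand, so that ATTGG and TTCAAA are matches on the opposite strand.
KIF20A, chr5:138178862-138179161, plus strand: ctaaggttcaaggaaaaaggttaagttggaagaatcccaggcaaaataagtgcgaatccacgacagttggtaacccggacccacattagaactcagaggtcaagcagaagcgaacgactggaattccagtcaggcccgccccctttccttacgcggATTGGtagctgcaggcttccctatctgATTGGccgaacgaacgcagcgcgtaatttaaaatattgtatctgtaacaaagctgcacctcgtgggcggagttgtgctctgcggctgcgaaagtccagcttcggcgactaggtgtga
KIF23, chr15:69414099-69414398, plus strand: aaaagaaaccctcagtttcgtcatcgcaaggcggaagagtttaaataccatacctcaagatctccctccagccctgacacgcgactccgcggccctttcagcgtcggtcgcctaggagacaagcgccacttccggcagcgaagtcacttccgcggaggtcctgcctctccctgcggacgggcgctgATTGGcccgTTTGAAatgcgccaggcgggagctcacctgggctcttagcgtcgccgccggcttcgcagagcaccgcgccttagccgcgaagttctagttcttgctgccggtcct
KIFC1, chr6:33391573-33391872, plus strand: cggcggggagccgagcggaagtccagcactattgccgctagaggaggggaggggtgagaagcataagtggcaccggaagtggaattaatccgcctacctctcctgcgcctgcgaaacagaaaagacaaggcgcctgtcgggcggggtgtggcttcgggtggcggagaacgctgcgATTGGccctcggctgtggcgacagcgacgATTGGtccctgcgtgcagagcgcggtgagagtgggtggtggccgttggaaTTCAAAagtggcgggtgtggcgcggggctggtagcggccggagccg
KIF5B, chr10:32056376-32056675, minus strand: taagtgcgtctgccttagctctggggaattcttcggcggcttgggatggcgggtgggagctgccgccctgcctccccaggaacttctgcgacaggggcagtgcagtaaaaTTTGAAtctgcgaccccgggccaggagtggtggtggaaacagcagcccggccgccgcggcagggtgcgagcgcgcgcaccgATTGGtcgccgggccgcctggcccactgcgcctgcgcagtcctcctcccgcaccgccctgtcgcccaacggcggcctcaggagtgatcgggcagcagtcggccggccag

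The KIF20A promoter held 2 CCAAT matches, whose first bases lay at −94 and −67 from the start site, and no CHR match. In the KIF23 promoter a CCAAT match at −64 was followed by a CHR match at −55. The KIFC1 promoter held CCAAT matches at −75 and −46 and a CHR match at 5 bases past the start. KIF5B carried both letters too, with CHR at −140 and CCAAT at −59, so they were not confined to mitotic kinesins. Over the tested mitotic kinesins, 9 of 14 promoters (64.3%) held CHR, 10 (71.4%) held CCAAT and 8 (57.1%) held both. Among all 35116 promoters of the same length the shares were 15.2% for CHR, 34.6% for CCAAT and 5.90% for both. That background was not limited to tested genes or matched for base content. Its mean GC content was 57.5%, against 63.7% in the 14 mitotic promoters. Of 10 promoters of 8 tested transport kinesins, several of them of KIF1B, 1 held CHR and 4 held CCAAT. KIF21B, KIFC2, KIFC3 and KIF13B had no matched promoter, so the largest fall and the largest rise of the transport class are not covered. The variant TTCGAA was found in 2 of the 14 mitotic promoters, against 1.45% of all promoters. Both are overlapping windows of KIF22 that hold the same genomic site. An E2F-like motif (TTTGGCGC, TTTCCCGC, TTTGCCGC or TTTCGCGC) was found in 1 of the 14, that of KIF15, against 3.31% of all promoters. Neither KIF2A nor KIF2C had any of these letters in its window. These matches describe the sequence and show no binding.

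Total counts ran from 14972069 to 16210861 in 8p libraries and from 18834611 to 23485628 in control libraries, so genes with few counts are less precise with 8p. Levels are given in CPM, counts relative to library size after TMM scaling for library composition. Mitochondrially encoded genes took 6.42% to 10.004% of counts in 8p libraries and 1.64% to 1.91% in controls, and 8p replicate 2 stood apart from the other 8p libraries. All 8 myeloid markers were expressed, with summed levels of 4886 to 5601 CPM in 8p libraries and 2020 to 2172 CPM in controls. LYZ made up most of that sum with 8p, at 3732 ± 369 CPM, against 1040 ± 60.0 CPM in controls, and 6 of the 8 were higher, while CD33 (log2 fold change −0.50) and MPO (−0.64) were lower. Of markers of other cell types, EPCAM and SYT1 had no count. The summed level of 4 T and NK cell markers was 32.7 to 44.3 CPM with 8p and 34.3 to 36.7 CPM in controls, and that of 3 B cell markers 1.498 to 2.29 CPM with 8p and 1.35 to 1.64 CPM in controls. Within the T and NK list NKG7 was higher (0.78), and CD3D (−2.64) and TRAC (−1.42) were lower. That of 4 epithelial and fibroblast markers was 31.6 to 41.8 and 9.74 to 10.3 CPM, and that of 4 neuronal markers 0.839 to 1.48 and 0.253 to 0.599 CPM, in the same order of groups. COL1A1 (5.80), KRT8 (1.11) and RBFOX3 (4.25) were higher in these lists, and KRT18 (−1.47) was lower. With mitochondrially encoded genes left out of the fit, 18 kinesins were called lower, the same number as with them. The part of the marker differences in the kinesin results was not tested.

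The comparison of 8p with control asked how the mitotic and the transport kinesins differ in their transcripts after exposure. All 13 tested mitotic kinesins were lower with 8p, 13 of 13 by at least 2-fold and 10 of 13 by at least 4-fold. Among all 13822 genes tested, 36.9% were called lower, 17.5% were lower by at least 2-fold and 5.38% by at least 4-fold. The median log2 fold change was −2.62 for the mitotic kinesins, −0.045 for the 12 tested transport kinesins (0.14 with upper quartile scaling, which moved all genes to 0.22) and 0.035 for all genes tested. Of the 12 transport kinesins, 3 were higher, 3 lower and 6 did not pass the threshold, an adjusted p under 0.05 in the quasi-likelihood test of edgeR. For genes called higher the background was 37.9%, and for either direction 74.7%, so the 6 of 12 transport kinesins called were no larger a share than among all genes.

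Mitotic kinesins together summed to 167 ± 4.16 CPM in 8p libraries and 918 ± 3.63 CPM in control libraries (SD, n = 3 each). The summed transport kinesins were at 389 ± 14.4 CPM with 8p and 405 ± 11.6 CPM in controls. The mitotic share of all kinesin counts, which does not depend on library scaling, was 28.7%, 28.5% and 29.2% in 8p replicates 1 to 3, against 67.2%, 67.3% and 68.7% in control replicates 1 to 3. The groups did not overlap. With counts divided by gene length the mean share was 34.7% ± 0.187 with 8p and 76.3% ± 0.574 in controls. In such bulk samples, fewer dividing cells and less kinesin RNA per cell cannot be told apart.

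**Figure D1:**
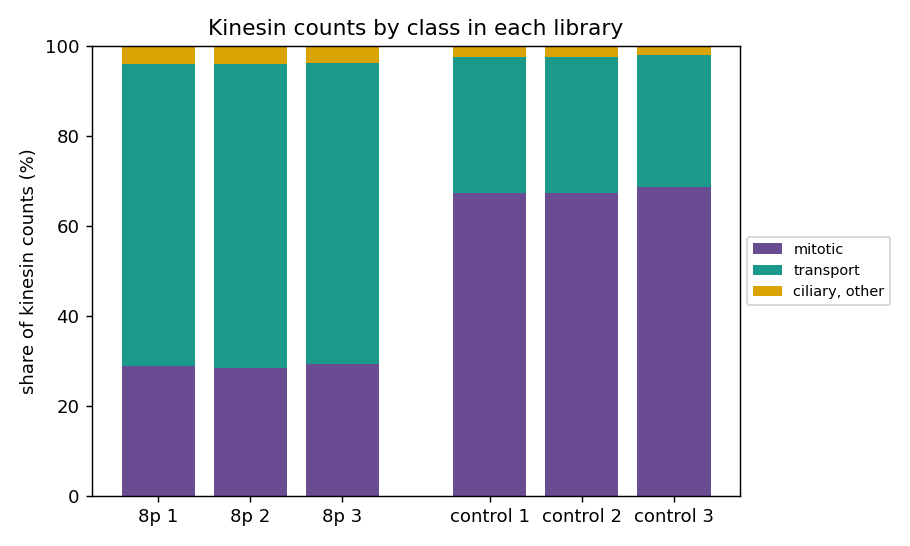
Share of kinesin counts (%, vertical axis) held by mitotic, transport, and ciliary or other kinesins in each of the 3 8p and 3 control libraries, as stacked bars. Mitotic kinesins take 28.5% to 29.2% of kinesin counts in 8p libraries and 67.2% to 68.7% in control libraries.

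Among the motors that build the bipolar spindle, KIF11, the kinesin-5 that pushes spindle poles apart, was at 20.1, 18.1 and 19.4 CPM in 8p replicates 1 to 3, against 114, 112 and 115 CPM in control replicates 1 to 3. Every 8p value was far under every control value, and the log2 fold change was −2.57 (SE 0.08, edgeR adjusted p = 4.39e-13). KIF15, a kinesin-12 that can substitute for KIF11 in holding poles apart, was at 6.32, 5.21 and 7.69 CPM with 8p and 50.9, 48.9 and 53.4 CPM in controls. Its fall was the second largest of the family, with a log2 fold change of −2.998 (SE 0.12, edgeR adjusted p = 7.64e-12). KIFC1, the kinesin-14 that walks to minus ends and gathers microtubules at the poles, was at 17.2, 15.2 and 13.2 CPM with 8p and 112, 118 and 114 CPM in controls. It had the highest control level per kilobase of any kinesin, 34.2 ± 0.824 CPM per kb, and with 8p it was at 4.55 ± 0.600 CPM per kb (log2 fold change −2.91, SE 0.10, edgeR adjusted p = 6.84e-13).

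The kinesin-13 proteins do not walk but remove tubulin from microtubule ends. KIF2C, which does so at centromeres to correct faulty attachments, was at 13.3, 17.8 and 16.9 CPM in 8p libraries and 112, 110 and 120 CPM in control libraries (log2 fold change −2.83, SE 0.10, edgeR adjusted p = 1.76e-12). KIF2A, which acts at spindle poles and in neurons, was at 17.8, 18.2 and 16.5 CPM with 8p and 55.2, 56.3 and 54.3 CPM in controls. It fell by 1.66 on the log2 scale (SE 0.09, edgeR adjusted p = 1.08e-10), the smallest change among the tested mitotic kinesins. IPO11 shares 428 exonic bases with KIF2A on the same strand and held 60.5% as many counts, of which 366 came from 8p and 2249 from control libraries, so its reads could touch the KIF2A value. KIF2B, the third kinesin-13 of the mitotic class, had no count in any library.

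Motors that position chromosomes were lower as well. KIF18A, a kinesin-8 that damps chromosome movement at kinetochores, was at 5.12, 3.84 and 4.99 CPM with 8p and 21.1, 21.1 and 27.0 CPM in controls (log2 fold change −2.31, SE 0.16, edgeR adjusted p = 2.65e-09). Its relative KIF18B, which works with KIF2C on astral microtubules, was at 9.18, 5.99 and 6.68 CPM with 8p and 50.9, 54.3 and 48.8 CPM in controls (log2 fold change −2.82, SE 0.13). Neither gene overlapped between groups. KIF4A, a chromokinesin that binds chromatin and sets the length of the central spindle, was at 4.86, 6.35 and 4.72 CPM with 8p and 31.2, 33.0 and 34.6 CPM in controls (log2 fold change −2.62, SE 0.13). KIF22, the chromokinesin that pushes chromosome arms toward the spindle equator, was at 32.1, 36.1 and 34.8 CPM with 8p and 131, 136 and 137 CPM in controls. Its log2 fold change of −1.97 (SE 0.08, edgeR adjusted p = 3.55e-12) left it the highest mitotic kinesin with 8p, at 7.96 ± 0.466 CPM per kb. KIF4B, an intronless copy closely related to KIF4A, had 2 counts in 8p and 11 in control libraries, was not tested, and can share reads with KIF4A.

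The kinesins of cytokinesis included the largest fall of the family. KIF20A (chromosome 5, 138178719 to 138187715, plus strand in GRCh38), which carries the chromosomal passenger complex with AURKB to the central spindle, was at 5.06, 6.05 and 3.91 CPM in 8p replicates 1 to 3. Control replicates 1 to 3 held 58.5, 62.2 and 49.2 CPM, and the log2 fold change was −3.49 (SE 0.14, edgeR adjusted p = 6.37e-12), an 11.2-fold difference. KIF23, which forms centralspindlin with RACGAP1, was at 7.32, 8.75 and 7.96 CPM with 8p and 61.5, 57.6 and 55.0 CPM in controls (log2 fold change −2.85, SE 0.10). KIF14, which recruits citron kinase to the midbody, was at 5.52, 5.27 and 8.57 CPM with 8p and 37.0, 37.5 and 39.8 CPM in controls (log2 fold change −2.57, SE 0.15). KIF20B, a relative of KIF20A that also acts in cytokinesis, was at 19.2, 24.4 and 19.9 CPM with 8p and 78.1, 71.4 and 74.2 CPM in controls. It fell by 1.81 on the log2 scale (SE 0.10, edgeR adjusted p = 1.55e-10), the second smallest change of the class. No 8p value of these genes reached a control value. The groups did not overlap for 13 of 13 tested mitotic and 8 of 12 tested transport kinesins, nor for 77.0% of all genes tested.

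**Figure D2:**
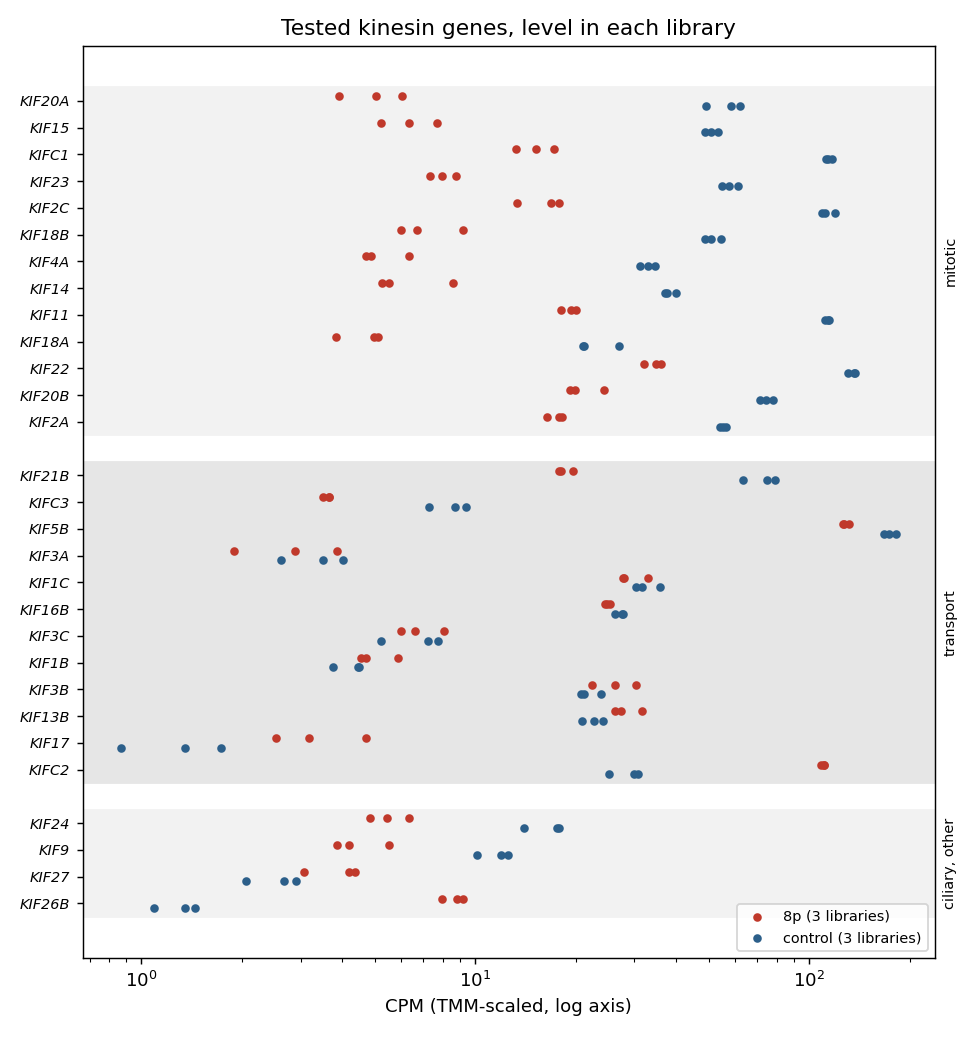
TMM-scaled level (CPM, log axis) of the 29 tested kinesins in each library, red for 8p and blue for control, grouped by class. The 13 mitotic kinesins and 8 of 12 transport kinesins have no overlap between groups, as do 77.0% of all genes tested, and KIF1C, KIF3A, KIF3B and KIF3C overlap.

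Among transport kinesins, KIF5B, the ubiquitous heavy chain of conventional kinesin, was the most abundant by length in controls. It was at 127, 132 and 126 CPM in 8p libraries and 174, 168 and 182 CPM in control libraries, a log2 fold change of −0.44 (SE 0.07, edgeR adjusted p = 1.81e-05). Because other kinesins were reduced more, KIF5B took 22.2% ± 0.234 of kinesin counts with 8p and 12.9% ± 0.661 in controls. KIF5A had no count. KIF5C, the neuronal heavy chain, had 0 counts with 8p and 17 in controls, which is at least 4.15-fold lower when 3 counts over the 8p group are taken as the limit of detection.

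KIFC2 (chromosome 8, 144466043 to 144474202, plus strand), a minus-end motor studied mainly in mouse neurons, was the transport kinesin with the largest rise. It was at 109, 111 and 111 CPM in 8p replicates 1 to 3, against 29.9, 30.7 and 25.2 CPM in control replicates 1 to 3. All 8p values were over 3 times any control value, with a log2 fold change of 1.94 (SE 0.09, edgeR adjusted p = 1.52e-11). Per kilobase it ranked first of the 42 kinesins with 8p, at 24.8 ± 0.2502 CPM per kb, and 13 among them in controls, at 6.44 ± 0.674 CPM per kb. FOXH1, which overlaps KIFC2 on the other strand over 791 exonic bases, held 2.19% as many counts. KIFC3, another minus-end motor, known from cell junctions, changed the other way, with 3.66, 3.66 and 3.51 CPM with 8p and 8.73, 9.39 and 7.29 CPM in controls (log2 fold change −1.23, SE 0.18, edgeR adjusted p = 1.30e-05).

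KIF21B (chromosome 1, 200969390 to 201023700, minus strand), which limits microtubule growth in neurons and lymphocytes, had the largest fall of the transport class. It was at 17.8, 19.7 and 18.01 CPM in 8p libraries and 74.7, 79.0 and 63.3 CPM in control libraries (log2 fold change −1.97, SE 0.10, edgeR adjusted p = 7.67e-11). This fall was larger than those of the mitotic kinesins KIF20B and KIF2A, and the difference between them was not tested. KIF21A had 0 counts with 8p and 14 in controls, at least 3.42-fold lower by the same limit.

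KIF17, a kinesin-2 that carries receptors in mouse neurons, was at 2.53, 3.18 and 4.72 CPM with 8p and 1.73, 1.36 and 0.871 CPM in controls (log2 fold change 1.37, SE 0.33, edgeR adjusted p = 0.00138). The groups did not overlap, and the gene rested on 38 to 70 counts in 8p libraries and 16 to 41 in control libraries. KIF13B, a kinesin-3 that carries membrane proteins, was at 26.3, 31.5 and 27.4 CPM with 8p and 22.6, 24.1 and 20.9 CPM in controls (log2 fold change 0.33, SE 0.10, edgeR adjusted p = 0.00924). Without 8p replicate 2 its log2 fold change was 0.22 and its adjusted p 0.0735, over a range from 3.14e-04 to 0.115 across the alternatives. Its relative KIF13A, which recycles endosomal cargo, was below the filter with 45 counts in 8p and 19 in control libraries, a ratio of 3.23 (exact 95% interval 1.85 to 5.85, counting error only).

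The other tested transport kinesins did not pass the threshold. Kinesin-2 is a dimer of KIF3A with KIF3B or KIF3C that drives traffic along cilia and to the cell edge. KIF3B was at 26.2, 30.4 and 22.3 CPM with 8p and 23.8, 21.2 and 20.7 CPM in controls (log2 fold change 0.27, SE 0.12, edgeR adjusted p = 0.0529). KIF3A and KIF3C averaged 2.88 ± 0.986 and 6.89 ± 1.08 CPM with 8p, against 3.38 ± 0.712 and 6.73 ± 1.32 CPM in controls. KIF1C, which moves vesicles and integrins, had a log2 fold change of −0.14 (SE 0.10), the endosomal motor KIF16B −0.12 (SE 0.09) and the mitochondrial and vesicle carrier KIF1B 0.25 (SE 0.20), where KIF1C and KIF16B turned to 0.048 and 0.066 with upper quartile scaling. KIF1A, its neuronal relative, had 5 counts in each group.

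**Figure D3:**
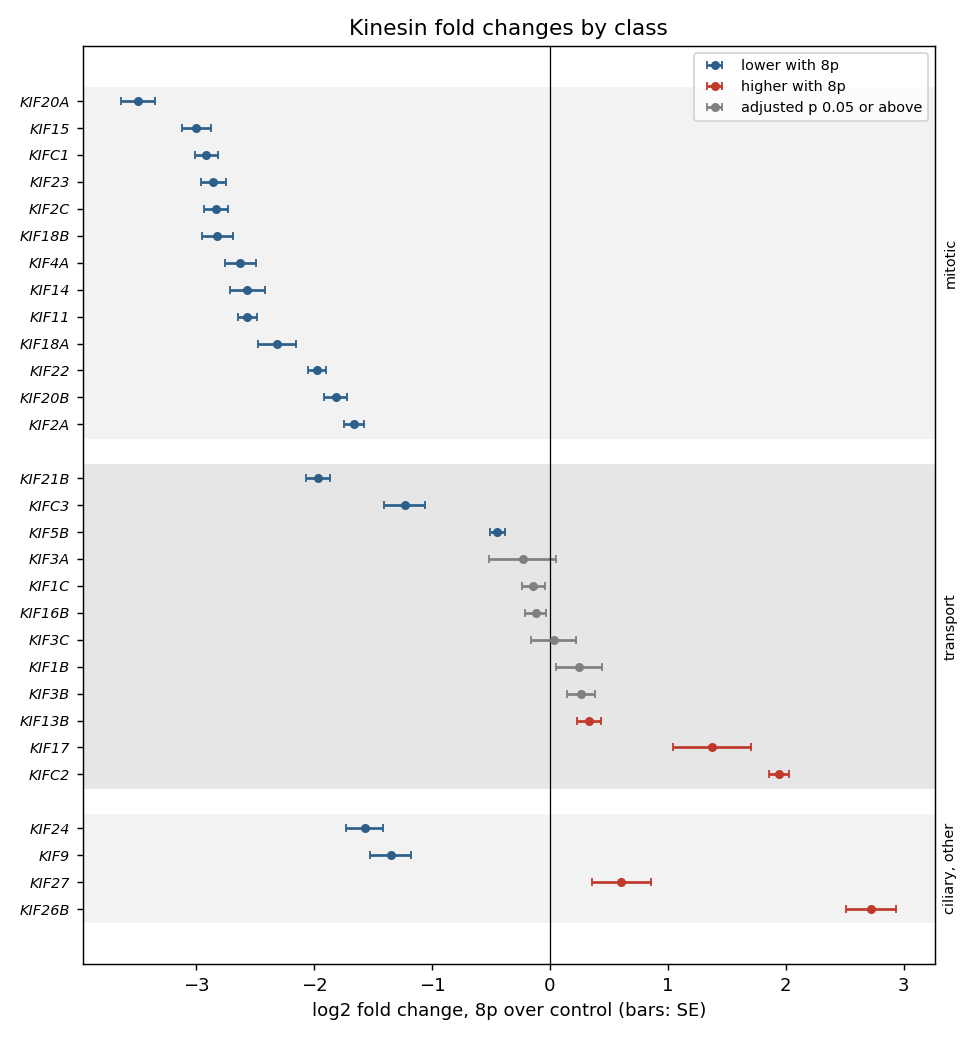
Log2 fold change of 8p over control (horizontal axis, bars SE) for the 29 tested kinesins by class, blue where lower, red where higher and grey where the adjusted p was 0.05 or above. The mitotic kinesins lie between −3.49 and −1.66, and the transport kinesins between −1.97 and 1.94.

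Of the 10 ciliary or other kinesins, 4 were tested, of which 2 were lower and 2 higher, where 74.7% of all genes were called in either direction. KIF26B (chromosome 1, 245154985 to 245709431, plus strand), an atypical kinesin of kidney development in the mouse, rose most in the whole family. It was at 9.18, 8.81 and 7.96 CPM with 8p and 1.35, 1.45 and 1.09 CPM in controls (log2 fold change 2.73, SE 0.21, edgeR adjusted p = 1.10e-08). Even so it stayed a low-level transcript, at 0.601 ± 0.0435 CPM per kb with 8p and 0.0899 ± 0.0129 CPM per kb in controls. KIF24, a centriolar kinesin-13 that holds back cilium formation, was at 6.32, 5.45 and 4.86 CPM with 8p and 17.5, 17.8 and 13.98 CPM in controls (log2 fold change −1.57, SE 0.16, edgeR adjusted p = 2.10e-07). KIF9, known from motile cilia and sperm tails, was at 3.86, 5.51 and 4.18 CPM with 8p and 11.97, 12.6 and 10.1 CPM in controls (log2 fold change −1.35, SE 0.17).

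KIF27, related to the mouse gene needed in motile cilia, was at 3.06, 4.37 and 4.18 CPM with 8p and 2.91, 2.06 and 2.67 CPM in controls. Its log2 fold change of 0.61 (SE 0.25, edgeR adjusted p = 0.0392) passed narrowly, and the call was lost without 8p replicate 2 or 3 or without any 1 control library (adjusted p from 0.0550 to 0.171 in these fits). It was also lost with DESeq2 (adjusted p = 0.0692) and without a filter on low counts (0.119), and 8 of 17 alternatives kept it. KIF7, a regulator of Hedgehog signalling at the cilium tip, had 6 counts with 8p and 32 in controls, and KIF6 had 0 and 3. KIF7 shares 589 exonic bases with TICRR on the other strand, a gene that held 240 counts in 8p and 1993 in control libraries. KIF12, KIF19, KIF25 and KIF26A had no count, which with KIF2B and KIF5A makes 6 kinesins undetected at this depth.

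No source used here gives the strand setting used for counting, so reads of overlapping genes on opposite strands may not be separated. Exons shared with a gene on the other strand holding at least 10% as many counts were found for KIF18A (METTL15, 61 bases), KIF20A (BRD8, 132 bases, and CDC23, 68 bases), KIF24 (UBAP1, 143 bases), KIF4A (PDZD11, 77 bases), KIF7 and KIF9 (KLHL18, 178 bases). Each of these overlaps but that of KIF7 covered under 4% of the kinesin's length.

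By length, the 5 highest kinesins in 8p libraries were KIFC2, KIF5B (21.8 ± 0.523 CPM per kb), KIF22, KIFC1 and KIF2C (4.39 ± 0.650 CPM per kb). In control libraries they were KIFC1, KIF22 (31.2 ± 0.807 CPM per kb), KIF2C (31.2 ± 1.43), KIF5B (29.7 ± 1.26) and KIF11 (23.4 ± 0.334). Levels of KIFC1 and KIF2C with 8p, and of KIF22 and KIF2C in controls, differed by less than their SD. So did those of KIF2C and the next in rank with 8p, the transport kinesin KIF3B (4.31 ± 0.660 CPM per kb). A transport kinesin thus stood first with 8p and a mitotic one in controls.

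Related kinesins were compared within each library by the log2 ratio of their counts, which library scaling cannot move. For 9 pairs an exact two-sided permutation test over samples was used, in which 3 against 3 cannot give less than p = 0.10. KIF20A to KIF20B was at −1.92, −2.01 and −2.34 in 8p libraries and −0.42, −0.20 and −0.59 in control libraries, a difference of −1.68 without overlap (exact p = 0.10, the smallest possible, 0.18 after Benjamini-Hochberg adjustment over the 9 pairs). KIF2C to KIF2A was at −0.42, −0.03 and 0.04 with 8p and 1.02, 0.96 and 1.14 in controls, a difference of −1.18.

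KIFC1 to KIFC3 averaged 2.06 ± 0.161 with 8p and 3.76 ± 0.172 in controls, KIF18A to KIF18B averaged −0.63 ± 0.210 and −1.16 ± 0.273, and KIF11 to KIF15 averaged 1.59 ± 0.238 and 1.15 ± 0.0466. None of these 5 pairs overlapped between groups, and each had p = 0.10 (0.18 adjusted) in the exact test. For single genes, 77.0% of all tested did not overlap between groups, and the share over other gene pairs was not computed. The pairs KIF3A to KIF3B (difference −0.52, exact p = 0.30), KIF13A to KIF13B (1.18, exact p = 0.20) and KIF1B to KIF1C (0.39, exact p = 0.20) overlapped. The ratio of KIF21A to KIF21B rests on counts of 0 to 8 of KIF21A in a library and is not read.

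**Figure D4:**
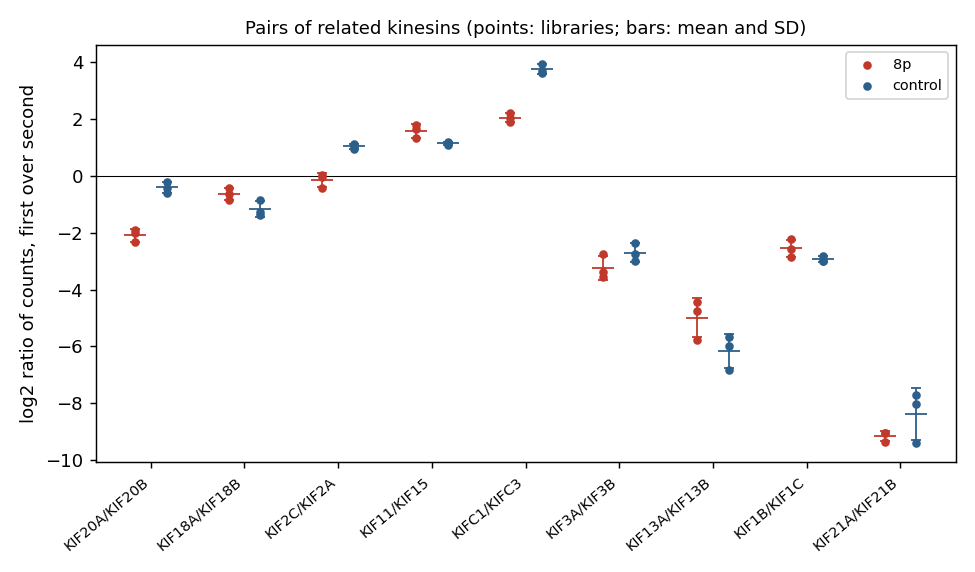
Log2 ratio of counts (vertical axis, first gene over second, 0.5 added to each count) for 9 pairs of related kinesins, with points for libraries and bars for the mean and SD, 8p in red left of control in blue. The first 5 pairs do not overlap between groups, and the last 4 do, where 77.0% of all single genes tested do not overlap.

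Proteins that work with mitotic kinesins were looked up as a separate list. All 13 tested of 14 were lower with 8p, with a median log2 fold change of −2.38, beside 0.035 for all genes tested and 36.9% of genes called lower. CENPE, the kinetochore kinesin-7 that lies outside the naming rule, averaged 9.87 ± 1.47 CPM with 8p and 51.3 ± 2.41 CPM in controls (log2 fold change −2.38). AURKB, cargo of KIF20A, had a log2 fold change of −3.47, PLK1, which docks on KIF20A, −3.21, and TPX2, which targets KIF11 to the spindle, −2.95. BIRC5, of the same complex as AURKB, had −2.92, and RACGAP1, partner of KIF23, −2.29 (19.3 ± 2.59 CPM with 8p and 94.3 ± 1.02 CPM in controls). PRC1, which binds KIF4A, was not tested, with 20 counts in 8p and 52 in control libraries. AC068831.7 overlaps 57.6% of the length of PRC1 on the same strand and held 258 counts over all libraries. Whether this overlap lowered the PRC1 count was not tested.

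Light chains and adaptors of transport kinesins were mostly higher, 11 of 19 tested, with 5 lower and a median log2 fold change of 0.37, where 37.9% of all genes were higher. Among kinesin-1 light chains, KLC1 averaged 34.3 ± 0.403 CPM with 8p and 21.8 ± 0.976 CPM in controls, KLC4 18.2 ± 2.55 and 9.47 ± 1.68 CPM, and KLC2 11.1 ± 2.68 and 16.7 ± 0.905 CPM. Their log2 fold changes were 0.66, 0.94 and −0.60, all past the threshold. KLC1 overlaps XRCC3 on the other strand over 29.9% of its length, and KLC4 overlaps MRPL2 and CUL7. MAPK8IP3, which links kinesin-1 to vesicles, rose most, with 201 ± 6.34 CPM with 8p and 30.7 ± 3.63 CPM in controls (log2 fold change 2.71, SE 0.09, edgeR adjusted p = 5.58e-13). MAPK8IP1 (2.21, SE 0.52) and PLEKHM2 (1.03), a link between lysosomes and kinesin-1, followed. MAPK8IP1 rested on few counts, 12 to 18 in 8p libraries and 2 to 9 in control libraries. KIFAP3, the non-motor subunit of kinesin-2, rose by 0.37 (edgeR adjusted p = 0.0439), and KIFBP, listed under the older symbol KIF1BP and known to inhibit several kinesins, had −0.77.

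Dynein, the motor that runs the opposite way, and its activator dynactin gave 14 lower and 3 higher of 21 tested, with a median of −0.38, where 36.9% of all genes were lower and 37.9% higher. Upper quartile scaling raised the median of all genes from 0.035 to 0.22, so the size of such small falls depends on scaling. Values of this list with that scaling are not given here. DYNC1H1, the dynein heavy chain, averaged 95.9 ± 2.31 CPM with 8p and 120 ± 8.91 CPM in controls (log2 fold change −0.32). The largest changes were in DYNC1LI2 (1.42), DYNLT3 (0.93), NDE1 (−0.80) and DYNC1LI1 (−0.74). No called fall in this list reached 2-fold, whereas all 13 mitotic kinesins did. All 8 tested tubulins were lower, against the same 36.9% of all genes, with a median of −2.67, led by TUBA4A (−3.53), TUBB (−3.17), TUBB4B (−2.81) and TUBG1 (−2.69). TUBA1A changed far less than the other tubulins (−0.21, edgeR adjusted p = 0.0160). The shift of all genes with upper quartile scaling, from 0.035 to 0.22, is close in size to the TUBA1A change. Its call as lower may therefore depend on the scaling. Tubulin genes resemble each other closely, so reads may be shared among them. On the other strand, STK16 overlaps 15.4% of the length of TUBA4A and AFG3L2 20.3% of that of TUBB6. TUBA1C, with 23956 counts, likewise overlaps 14.3% of the length of TUBA1A, which had 11539.

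**Figure D5:**
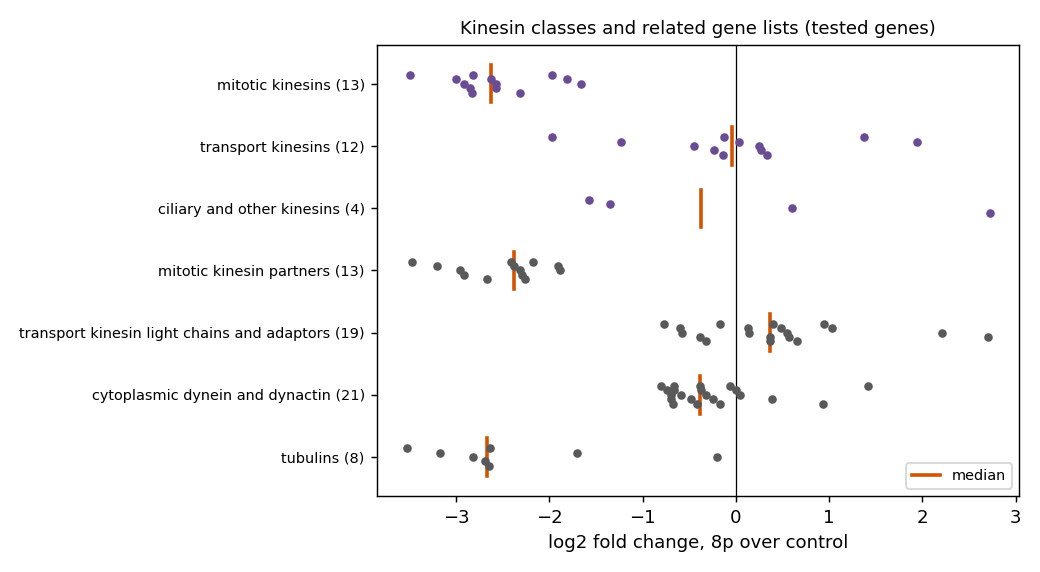
Log2 fold change of 8p over control (horizontal axis) of the tested genes of each kinesin class and related list, each point 1 gene and each orange bar the median, with the number tested in brackets. With TMM scaling, mitotic kinesins, their partners and tubulins lie left of 0 throughout, TUBA1A being nearest 0 at −0.21. Transport kinesins lie on both sides around a median of −0.045 (0.14 with upper quartile scaling).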

How the data were processed

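The deposited table holds the authors' raw counts per gene for 6 libraries, not normalized. Per the labels' protocols, mRNA was enriched by poly(A) capture or rRNA removal, without saying which. HISAT2 2.0.5, featureCounts 1.5.0-p3, DESeq2 1.20.0, edgeR 3.22.5 and build hg38 are named in the submitters' processing notes. The deposited gene length column, another kind of value, equalled the union of GENCODE release 29 exons for all 42 kinesins. Counts were tested in R 4.3.3 with edgeR 4.0.16 by its quasi-likelihood F test (TMM factors, filterByExpr, group as the only term) over 13822 genes, with Benjamini-Hochberg adjustment and a threshold of 0.05. SE is the log2 fold change divided by the square root of F. TMM centres libraries on the bulk of genes, and no spike-in is described, so fold changes are relative to other transcripts. Ratios of untested genes carry exact 95% intervals, and genes at 0 a floor of 3 counts over the group, which cover counting error only. Permutation tests used SciPy 1.17.1. On simulated counts of 12863 genes, the test recovered 60.7% of genes changed by 0.5, 93.4% by 1 and 100% by 2 on the log2 scale. It made 10 false calls among 12678 unchanged genes. Most genes were left unchanged there, whereas 74.7% of genes tested were called in these data, so the simulation does not cover changes of that breadth.

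The members, classes, lists and pairs were chosen with earlier results of these data known. Every kinesin was accounted for. Values per library were given for the tested mitotic kinesins and for others called with an absolute log2 change of at least 1 or among the largest 3 of a class, and other genes named include those chosen after their values were seen. Of the related lists, up to 4 called members with the largest change were named, besides CENPE, PRC1, RACGAP1, TPX2, KLC1, KLC2, KLC4, KIFAP3, KIFBP and DYNC1H1. Alternatives were DESeq2 1.42.0, limma-voom (limma 3.58.1), 3 other scalings, 2 other filters, other gene sets, a stricter threshold of 0.01, replicate number as a block and each library left out. One list of cell type markers is not reported here.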

Additional observations from a re-analysis of the deposited data

Results flagged for a closer look

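Among rows with a KIF name that were no members, 2 that the comparisons above did not use held a signal above the control level. KIF28P, a transcribed pseudogene on chromosome 1, had 10, 10 and 13 counts in 8p replicates 1 to 3 and 2, 3 and 4 in control replicates 1 to 3, a log2 fold change of 2.26 (edgeR adjusted p = 0.00190). KIF9-AS1, an antisense RNA that shares 870 exonic bases with KIF9, had 17, 12 and 27 counts with 8p and 13, 13 and 8 in controls, a log2 fold change of 1.18 (edgeR adjusted p = 0.0248), while KIF9 itself was lower.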

How the results depend on the processing

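All 13 tested mitotic kinesins stayed lower and past the threshold in each of the 17 alternatives, and the number of kinesins called lower ran from 18 to 21. Their median log2 fold change was −2.44 with upper quartile scaling, −2.71 without a filter on low counts, −2.59 with at least 1 CPM in 3 samples, −2.54 over protein-coding genes and between −2.79 and −2.61 with 1 library left out. Upper quartile scaling moved the median of all genes to 0.22. The transport median was 0.14 with that scaling and between −0.14 and 0.12 with 1 library left out. Without a filter, 6 transport kinesins were lower, among them KIF5C and KIF21A. With 1 library left out, 3 to 6 kinesins and 2 to 5 transport kinesins were higher. Those left without 8p replicate 2 were 3 kinesins, since KIF13B and KIF27 lost their calls. The 5 transport kinesins higher without 8p replicate 3 included KIF13A and KIF3B. KIF13A was also called without a filter (adjusted p = 0.0338) and without control replicate 1 (0.0385) or 3 (0.0276), but not without control replicate 2 (0.0697). KIF3B also passed with upper quartile scaling (adjusted p = 0.00254), at least 1 CPM in 3 samples and protein-coding genes alone. KIF1C was called lower without a filter and without 8p replicate 2 (adjusted p = 0.0397 and 0.0309).

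Directions turned for genes that were not called. KIF1C was at 0.048 and KIF16B at 0.066 with upper quartile scaling, and KIF3C at −0.084 without a filter and at −0.14 without control replicate 3 (−0.13 without 8p replicate 2). For KIF21A to KIF21B, the difference in log2 ratio, 8p minus control, turned from −0.79 to 0.76 when the pseudocount was raised to 2. A pseudocount of 0 could give no value for it. The mitotic share was 34.7% with 8p and 76.3% in controls per kilobase, and 26.6% and 66.4% without KIF2A and KIF4B. Same-numbered replicates did not deviate together (correlations from −0.04 to −0.01). Such correlations cannot show whether cultures of the same number were handled as pairs. With the replicate block, 18 kinesins were lower and 4 higher, and KIF27 lost its call (adjusted p = 0.0693). No cause of these changes was tested. The filter left out 13 kinesins with few or no counts, of which 7 were fitted without it.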
